A study of Mus musculus with 4 samples.

Results

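The genes of the platelet-derived growth factor (PDGF) system were followed in mouse carotid arteries before and after wire injury, by cell class and by day. The set was chosen by name, not by any measured value, and comprised the 4 ligand genes Pdgfa, Pdgfb, Pdgfc and Pdgfd and the 2 receptor genes Pdgfra and Pdgfrb. These were 6 of the 31053 genes listed in each count table, of which 20506 had at least 1 unique molecular identifier (UMI, a tag that marks 1 captured RNA molecule). All 6 were detected, with between 833 and 6575 UMIs in the cells kept. The mice were of the C57BL/6 strain, aged 11 weeks before injury, and male per the methods. The endothelium was removed and the wall stretched by drawing a wire through the artery. Libraries were made from uninjured vessels (day 0) and from vessels taken 3, 7 or 14 days after injury, each from a pool of arteries of several mice, with thrombosed arteries excluded. The arteries were digested enzymatically, and dead cells were depleted. Each time point was 1 droplet 3′ library, so there were no replicates, a difference between days cannot be told apart from a difference between libraries, and no test was made.

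PDGF ligands are secreted dimers that bind and pair receptor tyrosine kinases on neighbouring cells, mostly cells of mesenchymal origin. PDGF-A binds the alpha receptor, PDGF-B binds the alpha and the beta receptor, PDGF-C acts mainly through the alpha receptor and PDGF-D mainly through the beta receptor. PDGF-A and PDGF-B are released in active form, whereas PDGF-C and PDGF-D carry a CUB domain that must be cleaved off by proteases outside the cell. In the vessel wall, PDGF-B from endothelial cells recruits mural cells through the beta receptor, and after injury PDGF from platelets, macrophages and the wall itself is known to drive migration and division of smooth muscle cells. Platelets store the protein, which RNA-sequencing of nucleated cells does not measure.

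The 4 libraries held 6161 barcodes, with 2672722 to 27973418 UMIs per library, and 5408 cells were kept, namely 281, 1405, 2693 and 1029 on days 0, 3, 7 and 14, with a median of 7959, 5458, 6317 and 10764 UMIs. Libraries shared cell barcodes, 152 of them between days 0 and 3, 64 between days 7 and 14, and 1 between days 3 and 7. In most shared pairs, 1 copy held a small fraction of the UMIs of its partner, with partners a median of 109 times deeper for day 0 copies, 21.5 times for day 3 copies and 89.6 times for day 14 copies. The 214 shallow copies were removed. With the copies kept, the ratios between days that were recomputed, and the share of the UMIs of each gene held by its leading class, moved by less than their counting error. Cells were clustered without the 6 genes, so none of them defined a class, and classes were named by resemblance to marker lists that do not contain them. Fibroblast-like cells numbered 231, 120, 215 and 538 on days 0, 3, 7 and 14, smooth muscle-like cells 7, 68, 57 and 71, endothelial-like cells 6, 40, 56 and 18, and monocyte/macrophage-like cells 3, 557, 944 and 186. Sums of fewer than 10 cells were not used for ratios. Unnamed cells made up 5.69%, 10%, 19% and 3.89% of the cells. The class names were rebuilt here, as the study's own annotation was not used.

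Levels are given as CPM, the UMIs of a gene per 1000000 UMIs summed over the cells of a class in 1 library. Intervals are exact 95% Poisson intervals for levels, exact binomial intervals for shares and exact conditional intervals for ratios, and all cover counting error only. Where a sum held 0 UMIs, the limit given is that of 3 UMIs. Because UMIs were summed, deep cells weighed most. Cells of 40000 UMIs or more gave 80.7% of the fibroblast-like UMIs on day 3 and 55.2% on day 7, against 1.72% on day 14 and none on day 0. They gave 68.1%, 54.6% and 22.5% of the smooth muscle-like UMIs on days 3, 7 and 14. Values without these cells are given beside the ratios that they moved most.

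Pdgfc and Pdgfd, the ligands that need cleavage, differed most from day 0 in fibroblast-like cells on days 3 and 7, and in opposite directions. On day 14, Pdgfra differed more than Pdgfd. Their promoters are therefore shown, from 250 bases before to 50 bases after the start of the gene as listed by RefSeq on GRCm38.p6. The Pdgfc window lies at chr3:81036166-81036465 and the Pdgfd window at chr9:6168236-6168535, both on the plus strand. Capitals mark matches to the motifs searched on both strands, which were chosen after the sequences were seen. They were TATAAA, then the motif GGAATG, then the motif TGANTCA and last the motif GGGCGG.
Pdgfc: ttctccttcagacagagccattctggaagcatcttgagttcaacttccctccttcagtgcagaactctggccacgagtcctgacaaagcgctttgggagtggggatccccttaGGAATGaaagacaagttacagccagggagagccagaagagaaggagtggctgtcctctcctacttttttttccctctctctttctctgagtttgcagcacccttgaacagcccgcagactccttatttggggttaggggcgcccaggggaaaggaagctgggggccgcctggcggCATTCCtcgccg
Pdgfd: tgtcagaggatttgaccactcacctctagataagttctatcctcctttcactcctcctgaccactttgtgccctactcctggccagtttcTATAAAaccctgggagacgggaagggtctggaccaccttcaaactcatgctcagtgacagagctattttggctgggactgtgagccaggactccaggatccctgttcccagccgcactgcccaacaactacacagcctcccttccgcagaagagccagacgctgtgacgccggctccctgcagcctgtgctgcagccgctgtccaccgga
The Pdgfc window held 2 matches to GGAATG, 1 on each strand, a motif found in 14.7% of the 32851 promoter windows of the same length. The Pdgfd window held 1 match to TATAAA, found in 13.6% of windows, at position -160 from the start. Neither window held TGANTCA (7.81% of windows) or GGGCGG (35.7% of windows). Among the other genes of the set, the 2 listed starts of Pdgfa held GGGCGG, and the Pdgfra window held none of the 4 motifs. A match is a description of the letters and was not measured as a binding site.

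**Figure D1:**
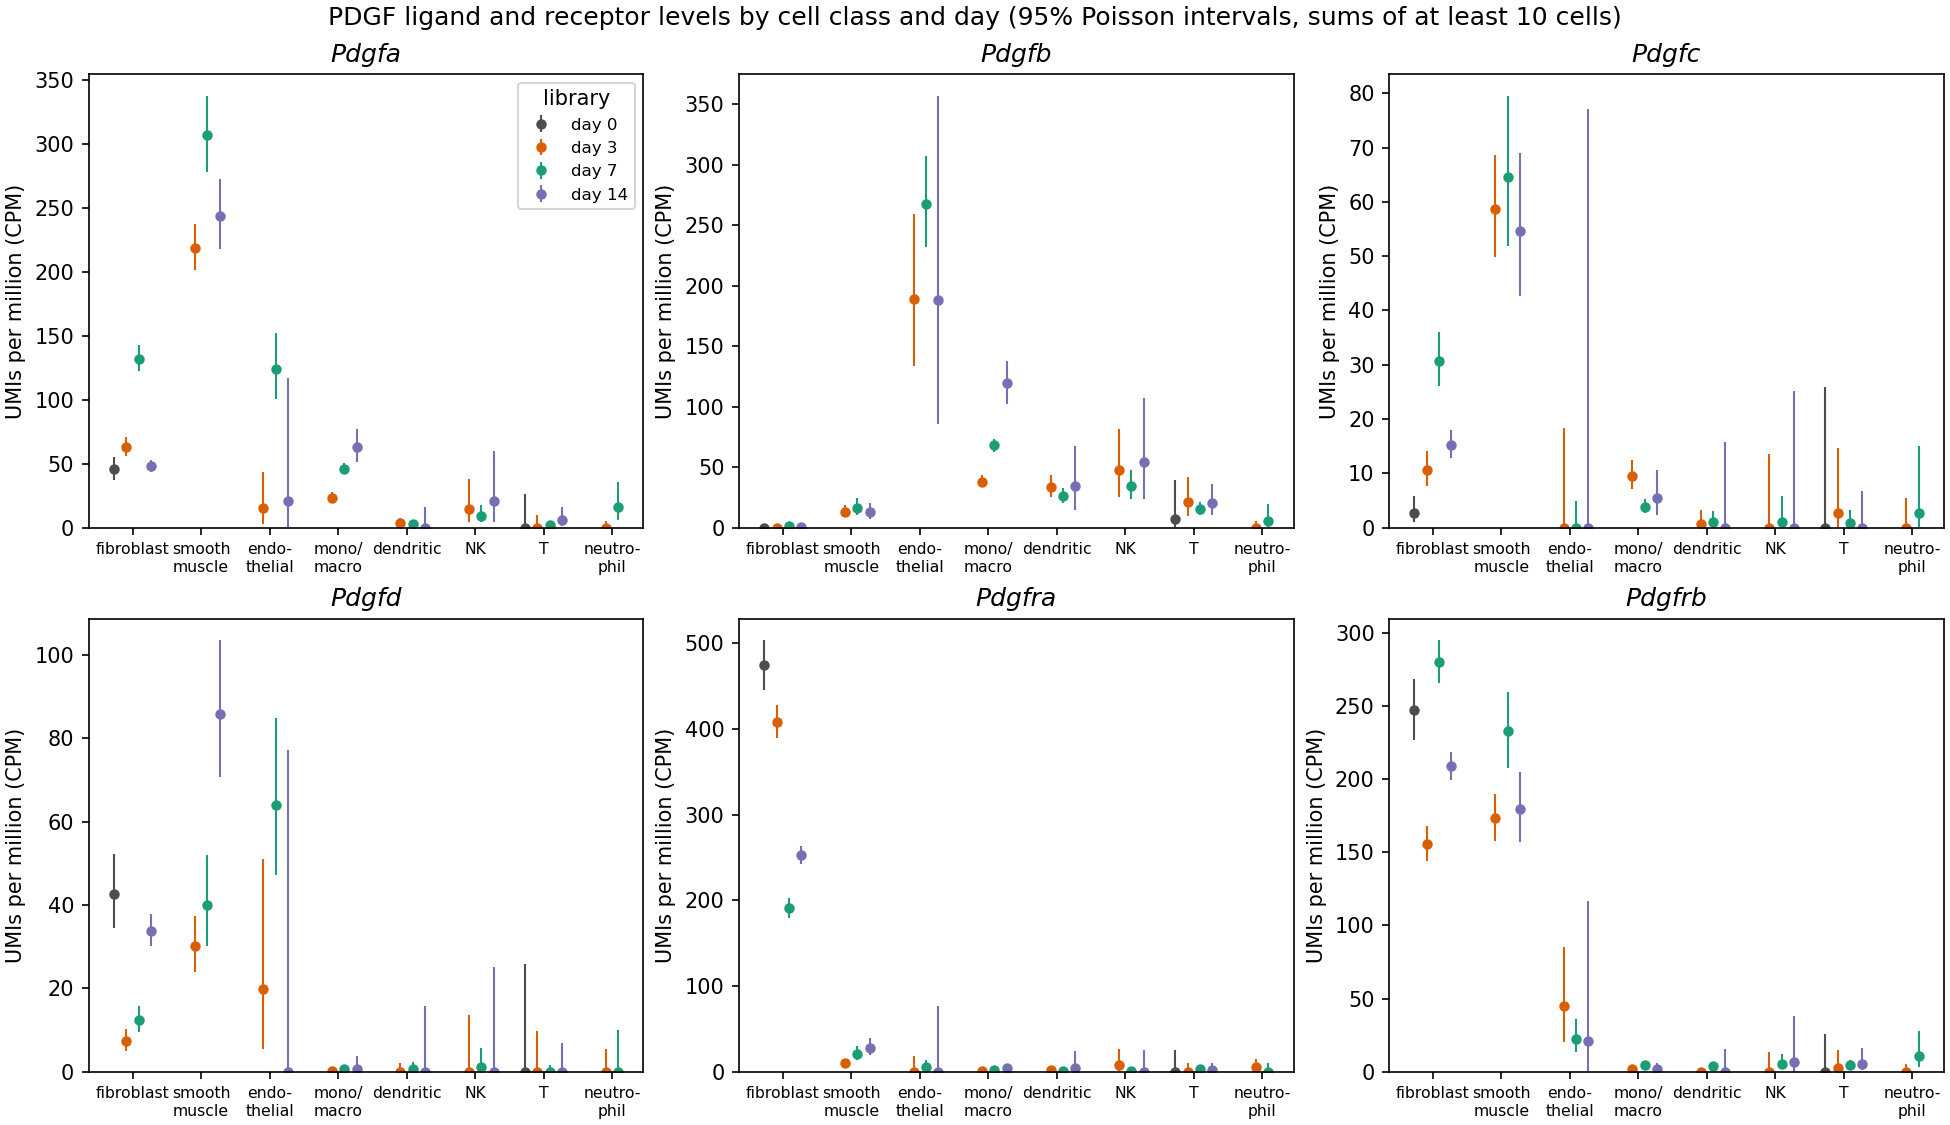
Level of each PDGF gene (CPM, y axis) in each cell class (x axis) by day (colour), with exact 95% Poisson intervals of the counting error, for sums of at least 10 cells. On days 3, 7 and 14, Pdgfa and Pdgfc were highest in smooth muscle-like cells and Pdgfra in fibroblast-like cells, Pdgfb was led by endothelial-like cells, and Pdgfrb was shared by fibroblast-like and smooth muscle-like cells.

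Pdgfa (ENSMUSG00000025856) encodes the chain of PDGF-AA, a ligand of the alpha receptor. It was highest in smooth muscle-like cells, at 219 CPM on day 3 (201 to 237), 307 CPM on day 7 (278 to 337) and 244 CPM on day 14 (217 to 272). The 7 smooth muscle-like cells of day 0 held 7 UMIs, or 73.4 CPM. In fibroblast-like cells Pdgfa stood at 45.4 CPM on day 0 (37.0 to 55.2), 62.9 CPM on day 3 (55.7 to 70.8), 132 CPM on day 7 (122 to 142) and 47.8 CPM on day 14 (43.3 to 52.5). Day 7 thus stood apart in fibroblast-like cells, at 2.90 times the day 0 level (2.35 to 3.61), whereas day 14 was 1.05 times that level (0.845 to 1.32). The day 7 value was 2.05 times without cells of 40000 UMIs or more and 4.66 times with each library clustered on its own. The smooth muscle marker list in fibroblast-like cells was also highest on day 7, as given below for Pdgfc, and its part in the Pdgfa result was not tested. Among smooth muscle-like cells, day 7 was 1.40 times day 3 (1.23 to 1.59), but 1.01 times without the deep cells. Among fibroblast-like clusters, the day 7 level was 123 CPM in the cluster led by Fmo2 and Sfrp2, which held 51.9 CPM on day 0, and 203 CPM in the cluster led by the acute-phase gene Saa3 and the protease gene Mmp3, which held 53.8 CPM on day 3. The cluster led by C1qtnf3 and Angptl1, which held no cells before day 7, held 83.8 CPM on day 7 and 53.7 CPM on day 14.

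Monocyte/macrophage-like cells also held Pdgfa, at 23.4 CPM on day 3 (19.6 to 27.7), 46.1 CPM on day 7 (41.9 to 50.6) and 62.9 CPM on day 14 (50.8 to 77.0). The level was 1.97 times day 3 on day 7 (1.62 to 2.41) and 2.69 times on day 14 (2.04 to 3.53). The summed fibroblast marker list moved the same way in these cells, at 421, 751 and 779 CPM, with all 12 genes detected, and its part in the result was not tested. Within the cluster led by Ms4a7 and C1qa, Pdgfa stood at 23.3, 69.5 and 73.6 CPM on days 3, 7 and 14. Endothelial-like cells went from 14.9 CPM (3 UMIs) on day 3 to 124 CPM on day 7 (100 to 152), of which 67 of 93 UMIs came from 6 deep cells, with 103 CPM in the rest. On day 14 they held 1 UMI, or 20.9 CPM, which was 0.169 times day 7 (0.00422 to 0.963). Over days with at least 10 cells of a class, which leaves out day 0 for smooth muscle-like cells, their range did not overlap that of fibroblast-like cells, whereas fibroblast-like and monocyte/macrophage-like ranges overlapped. Shares of cells with a UMI are given after thinning to 1000 UMIs per cell, with shallower cells left out, which kept all 203 smooth muscle-like cells and 1027 of 1104 fibroblast-like cells but only 72 of 120 endothelial-like cells. Of the cells thinned, 17.7% of smooth muscle-like cells held a Pdgfa UMI (12.7 to 23.7), against 4.38% of fibroblast-like cells, 2.94% of monocyte/macrophage-like cells and 6.94% of endothelial-like cells. As background, the thinned share was 0 in neutrophil-like cells (up to 1.11%) and 0.187% in T cell-like cells. The unthinned shares were 83.3%, 42.8%, 17.5% and 20.8%, against 1.13% and 1.10%. The shallowest of these classes was the endothelial-like one, whose median lay between 909.5 and 1706 UMIs, and neutrophil-like cells had medians of 2856.5 and 3040 UMIs.

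Pdgfb (ENSMUSG00000000489) encodes the chain of PDGF-BB, the ligand by which endothelium attracts mural cells. Endothelial-like cells held the highest level, 189 CPM on day 3 (134 to 259), 268 CPM on day 7 (232 to 308) and 188 CPM on day 14 (86.0 to 357). On day 0, 6 endothelial-like cells held 8 of the 12 Pdgfb UMIs of the library. The endothelial-like sums rested on few cells. On day 3, 33 of the 38 UMIs came from 2 deep cells, and the remaining cells stood at 82.2 CPM. On day 7, 146 of 201 came from 6 deep cells, and the remaining cells stood at 218 CPM. The day 7 to day 3 ratio was 1.42 (0.998 to 2.06) and became 2.66 without the deep cells, so its size depended on them. On day 14 the 18 endothelial-like cells held 9 UMIs, and the summed monocyte/macrophage marker list was 4932 CPM in them, against 164 and 171 CPM on days 3 and 7. Its part in that value was not tested.

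Monocyte/macrophage-like cells held less Pdgfb per UMI but were many more. The class was made of different clusters on each day, since the cluster led by Ms4a7 and C1qa held 75 of its 557 cells on day 3, 288 of 944 on day 7 and 122 of 186 on day 14. Their level was 38.0 CPM on day 3 (33.1 to 43.4), 68.0 CPM on day 7 (62.8 to 73.4) and 119 CPM on day 14 (102 to 138), or 1.79 (1.53 to 2.09) and 3.13 (2.55 to 3.84) times the day 3 level. The same order was seen within the cluster led by Ms4a7 and C1qa, at 48.5, 97.4 and 130 CPM. It was not seen in every cluster. Cells led by Tcirg1 and Gm26917 stood at 57.2, 110 and 39.8 CPM. The summed platelet marker list in monocyte/macrophage-like cells was 77.8, 19.6 and 2.68 CPM on days 3, 7 and 14, and the endothelial list in them was 18.5, 34.3 and 28.8 CPM. Their part in the Pdgfb values was not tested.

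Pdgfb was also found in NK cell-like cells (47.8, 34.0 and 54.5 CPM on days 3, 7 and 14), dendritic-like cells (33.6, 26.0 and 34.4 CPM) and, lower, T cell-like cells (7.00, 21.1, 15.1 and 20.3 CPM on days 0, 3, 7 and 14). The endothelial-like range over days lay above that of monocyte/macrophage-like cells. The 2 ranges overlapped without cells of 40000 UMIs or more (82.2 to 218 CPM against 37.5 to 119 CPM) and as means over cells (79.9 to 160 CPM against 38.1 to 81.6 CPM), and with each library clustered on its own no endothelial-like class was found. In the summed levels, the ranges of monocyte/macrophage-like, NK cell-like and dendritic-like cells overlapped each with the next. Fibroblast-like cells held next to none, with 0 UMIs on day 0 (limit 1.35 CPM) and day 3 (limit 0.686 CPM), 5 UMIs on day 7 and 7 UMIs on day 14. Smooth muscle-like sums were 13.2, 16.0 and 12.5 CPM on days 3, 7 and 14. On day 7, all but 1 of the 22 UMIs behind that value came from deep cells, and the remaining cells stood at 1.60 CPM. Thinned shares of cells with a Pdgfb UMI were 15.3% in the 72 endothelial-like cells deep enough to thin (7.88 to 25.7), 6.00% in monocyte/macrophage-like cells (4.90 to 7.26), 4.17% in NK cell-like cells and 3.22% in dendritic-like cells. They were 0 in neutrophil-like, 0.0974% in fibroblast-like and 0.493% in smooth muscle-like cells. The unthinned shares were 29.2%, 27.9%, 18.4% and 24.0%, and 0.565%, 0.906% and 17.7%. At equal depth the smooth muscle-like share rested on few cells (0.0125 to 2.71), and its interval overlapped those of fibroblast-like and neutrophil-like cells.

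Pdgfc (ENSMUSG00000028019) encodes the ligand whose promoter holds the 2 GGAATG matches shown above. It was highest in smooth muscle-like cells, at 58.7 CPM on day 3 (49.8 to 68.6), 64.7 CPM on day 7 (51.9 to 79.6) and 54.7 CPM on day 14 (42.6 to 69.1). These 3 levels lay within each other's intervals, with ratios to day 3 of 1.10 (0.840 to 1.44) and 0.932 (0.693 to 1.24), so no difference was detectable at this depth. Fibroblast-like cells differed between days. Their level was 2.70 CPM on day 0, from 6 UMIs (0.990 to 5.87), 10.5 CPM on day 3 (7.70 to 14.0), 30.8 CPM on day 7 (26.1 to 36.0) and 15.2 CPM on day 14 (12.8 to 18.0). Relative to day 0 these were 3.90 (1.66 to 11.2), 11.4 (5.12 to 31.5) and 5.64 (2.52 to 15.6) times, and the wide intervals come from the 6 UMIs of day 0. Without the deep cells, the ratios of days 7 and 14 stayed above 2. The day 3 level was then 7.09 CPM (2.60 to 15.4) from 6 UMIs, too few for a ratio to the 6 UMIs of day 0. As a mean over cells the day 14 value was 10.6 times.

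The day 7 level of Pdgfc did not rest on 1 cluster of fibroblast-like cells. In the cluster led by Fmo2 and Sfrp2, the level was 2.28, 11.3, 26.7 and 8.71 CPM on days 0, 3, 7 and 14. In the cluster led by C1qtnf3 and Angptl1 it was 36.6 CPM on day 7 and 14.2 CPM on day 14. In the cluster led by Igfbp5 and Sema3c, day 14 was 40.4 CPM against 4.66 CPM on day 0. The smooth muscle marker list in fibroblast-like cells was also highest on day 7, at 537, 433, 1499 and 545 CPM, and its part in the Pdgfc result was not tested. Monocyte/macrophage-like cells, unlike for Pdgfa and Pdgfb, held most on day 3, with 9.50 CPM on day 3 (7.14 to 12.4), 3.77 CPM on day 7 (2.64 to 5.22) and 5.35 CPM on day 14 (8 UMIs), and the day 7 level was 0.397 times day 3 (0.253 to 0.616). No Pdgfc UMI was found in the endothelial-like cells of days 3, 7 and 14, within limits of 14.9, 4.00 and 62.7 CPM. Of all smooth muscle-like cells, 5.42% held a Pdgfc UMI after thinning, against 0.974% of fibroblast-like and 0.551% of monocyte/macrophage-like cells and a background of 0 in neutrophil-like and 0.187% in T cell-like cells. Unthinned, these shares were 61.6%, 17.7%, 4.67%, 0.282% and 0.552%.

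Pdgfd (ENSMUSG00000032006) encodes the ligand that acts through the beta receptor after cleavage. In fibroblast-like cells it stood at 42.7 CPM on day 0 (34.6 to 52.2), 7.32 CPM on day 3 (5.01 to 10.3), 12.3 CPM on day 7 (9.43 to 15.8) and 33.8 CPM on day 14 (30.1 to 37.8). Days 3 and 7 were thus low, at 0.171 (0.111 to 0.258) and 0.288 (0.206 to 0.401) times day 0, and day 14 was 0.791 times (0.626 to 1.01). Without cells of 40000 UMIs or more, both low values became 0.415 times, and as a mean over cells the day 3 value was 0.275 times. Within the cluster led by Fmo2 and Sfrp2, which held cells of all 4 days, Pdgfd was 45.7, 12.8, 16.1 and 23.0 CPM. The deep cluster led by Saa3 and Mmp3 held 3.41 CPM on day 3 and 0 UMIs on day 7. The cluster led by C1qtnf3 and Angptl1, which made up many of the day 14 cells, held 18.9 CPM on day 7 and 41.2 CPM on day 14.

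In smooth muscle-like cells, Pdgfd was also lower on day 3 than on day 14. The 7 cells of day 0 held 18 UMIs, or 189 CPM (112 to 298), followed by 30.1 CPM on day 3 (23.9 to 37.4), 40.0 CPM on day 7 (30.1 to 52.0) and 85.9 CPM on day 14 (70.6 to 104). Day 14 was 2.86 times day 3 (2.12 to 3.86), or 1.999 times without the deep cells and 1.99 times as a mean over cells. With 500 genes and at most 10% mitochondrial UMIs this ratio was larger, as given in the section on processing. Day 7 was 1.33 times day 3 (0.924 to 1.90), and this direction turned to 0.760 with 500 genes and at most 10% mitochondrial UMIs and to 0.890 without doublet removal. With each library clustered on its own the day 7 ratio was instead larger, as given in the section on processing. Endothelial-like cells held 19.9 CPM on day 3, with all 4 UMIs in 1 deep cell, and 64.0 CPM on day 7 (47.2 to 84.8), and no UMI on day 14 (limit 62.7 CPM). Over days, the endothelial-like range overlapped those of fibroblast-like and smooth muscle-like cells, which also overlapped each other. Day by day, the smooth muscle-like level lay above the fibroblast-like level on days 3, 7 and 14, with intervals apart. On day 7 the endothelial-like sum was the highest, but its interval overlapped that of smooth muscle-like cells. As means over cells, endothelial-like and smooth muscle-like cells stood at 45.9 and 44.8 CPM on that day. Immune-like classes held little, with a median over days of 0.628 CPM in monocyte/macrophage-like cells, and T cell-like and neutrophil-like cells held 0 UMIs on all days measured. The thinned share of cells with a Pdgfd UMI was 7.88% for smooth muscle-like cells, 2.73% for fibroblast-like cells and 1.39% for endothelial-like cells, and unthinned it was 60.6%, 25.6% and 14.2%.

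**Figure D2:**
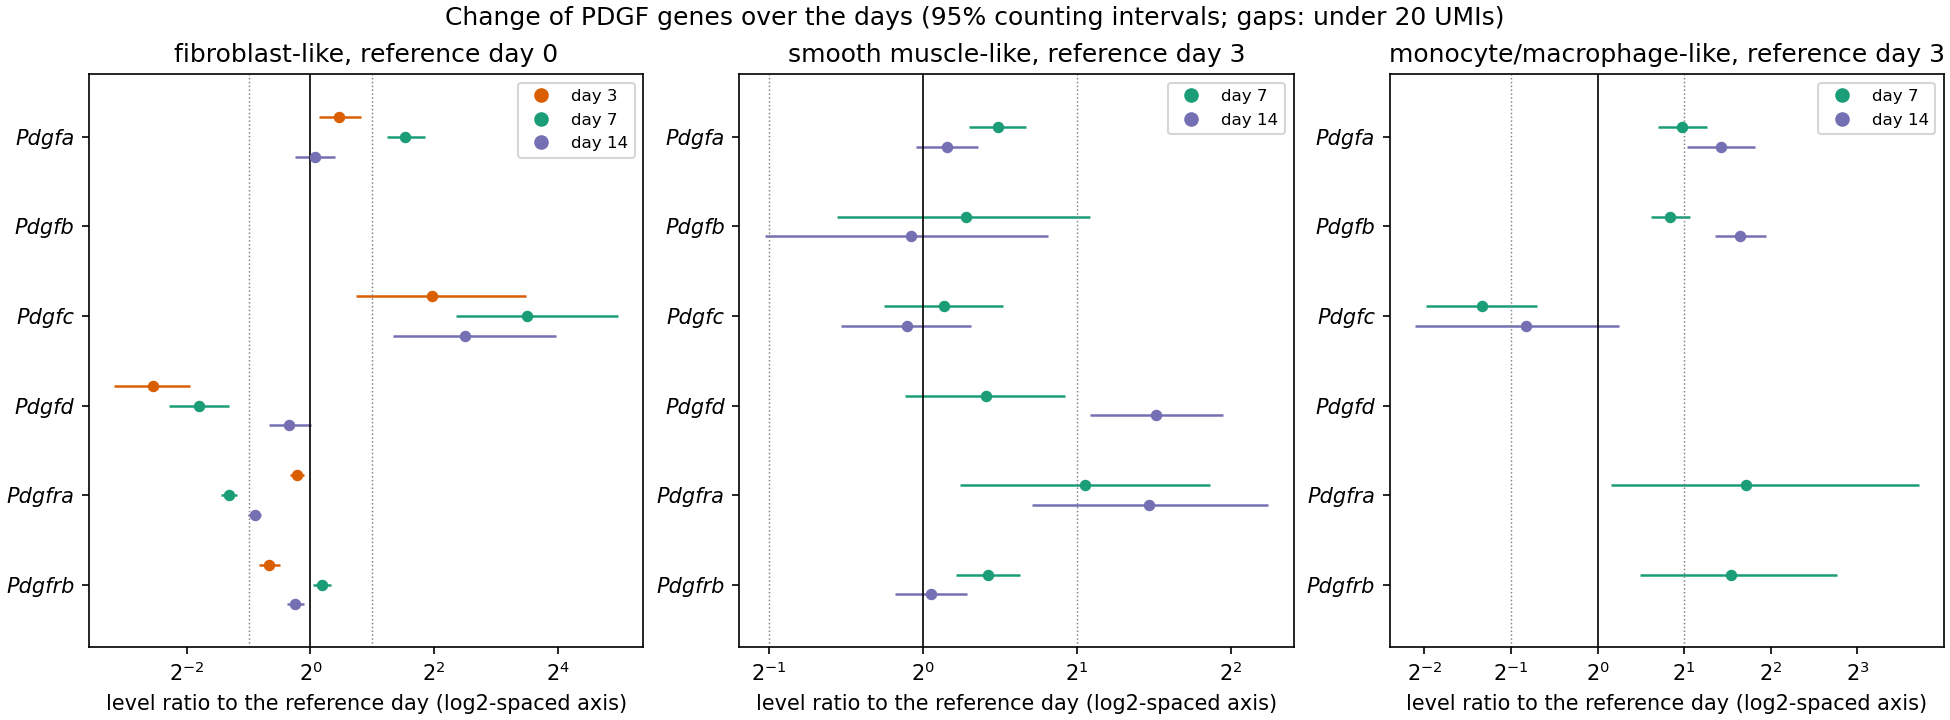
Ratio of the level of each PDGF gene (y axis) to the reference day of the class (x axis, log2-spaced), with exact 95% intervals of the counting error. The reference was day 0 in fibroblast-like cells and day 3 in smooth muscle-like and monocyte/macrophage-like cells. Dotted lines mark 2-fold, and a gap stands where both sums together held fewer than 20 UMIs. In fibroblast-like cells Pdgfc lay above and Pdgfd below 1 on all 3 days, and in monocyte/macrophage-like cells Pdgfa and Pdgfb lay above 1 on days 7 and 14.

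Pdgfra (ENSMUSG00000029231), which encodes the alpha receptor, marked the receiving side for PDGF-A and PDGF-C and was found almost only in fibroblast-like cells. Its level there was 474 CPM on day 0 (446 to 504), 409 CPM on day 3 (390 to 428), 191 CPM on day 7 (179 to 203) and 253 CPM on day 14 (243 to 264). The level was lower on each day after injury, at 0.862 (0.798 to 0.931), 0.402 (0.368 to 0.440) and 0.534 (0.496 to 0.575) times day 0. The day 7 value was 0.495 times without the deep cells and 0.581 times as a mean over cells of each cell's CPM. The smooth muscle marker list in fibroblast-like cells was also highest on day 7, as given above for Pdgfc. Its part in the Pdgfra and Pdgfrb results of fibroblast-like cells was not tested. Within the cluster led by Fmo2 and Sfrp2, it was 479, 288, 174 and 335 CPM on days 0, 3, 7 and 14. The deep cluster led by Saa3 and Mmp3 held 497 CPM on day 3 and 276 CPM on day 7. The cluster led by Igfbp5 and Sema3c held 459 CPM on day 0 and 192 CPM on day 14. The share of fibroblast-like cells with a Pdgfra UMI moved less than the level. After thinning it was 27.9%, 28.1%, 23% and 23.0% on days 0, 3, 7 and 14, with intervals that overlapped, and unthinned it was 79.2%, 82.5%, 75.8% and 79.2%.

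Smooth muscle-like cells held little Pdgfra, at 10.2 CPM on day 3 (27 UMIs), 21.1 CPM on day 7 (29 UMIs) and 28.1 CPM on day 14 (36 UMIs). Days 7 and 14 were 2.07 (1.19 to 3.64) and 2.77 (1.64 to 4.74) times day 3. Both directions depended on the filter, as they turned to 0.702 and 0.50 when cells needed 500 genes and at most 10% mitochondrial UMIs. Without the deep cells, day 7 was 1.11 times day 3, and with each library clustered on its own both days were 1.71 times. The fibroblast marker list in smooth muscle-like cells was 6591, 14279 and 7309 CPM on days 3, 7 and 14, with 12 of 12 genes detected, and its part in the Pdgfra values was not tested. Endothelial-like cells held 0, 4 and 0 UMIs on days 3, 7 and 14, and monocyte/macrophage-like cells stood at 0.704, 2.30 and 4.02 CPM. The fibroblast-like range lay above the smooth muscle-like range. Over all days, 24.5% of fibroblast-like cells (21.9 to 27.3) held a Pdgfra UMI after thinning, against 1.48% of smooth muscle-like, 0.428% of monocyte/macrophage-like, 0.748% of T cell-like and 0 of neutrophil-like cells. The monocyte/macrophage-like share lay between those of neutrophil-like and T cell-like cells and was not told apart from background. Unthinned, these shares were 78.9%, 28.1%, 1.89%, 1.47% and 1.13%.

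Pdgfrb (ENSMUSG00000024620), which encodes the beta receptor for PDGF-B and PDGF-D, was shared by fibroblast-like and smooth muscle-like cells. In fibroblast-like cells it stood at 247 CPM on day 0 (227 to 268), 156 CPM on day 3 (144 to 168), 280 CPM on day 7 (265 to 295) and 209 CPM on day 14 (199 to 218). The smooth muscle-like level was 173 CPM on day 3 (158 to 190), 232 CPM on day 7 (208 to 259) and 180 CPM on day 14 (157 to 204), and the 7 cells of day 0 held 15 UMIs. The 2 ranges over days overlapped. Day by day, the intervals of the 2 classes overlapped on days 3 and 14. On day 7 the fibroblast-like level was the higher one, with intervals apart, and without the deep cells it was 346 against 205 CPM. Fibroblast-like cells differed from day 0 by 0.631 (0.563 to 0.707), 1.13 (1.03 to 1.25) and 0.845 (0.768 to 0.931) times. The direction of day 7 turned to 0.922 with each library clustered on its own, and that of day 14 to 1.07 as a mean over cells. The low day 3 value rested on the deep cells, and became 0.958 times without them, with 236 CPM in the remaining cells. The same held for the smooth muscle-like ratio of day 7 to day 3, which was 1.34 (1.16 to 1.55) and became 0.962. The cluster led by Saa3 and Mmp3, whose cells had a median of 56200.5 UMIs, held 126 CPM on day 3, against 245 CPM in the cluster led by Fmo2 and Sfrp2.

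Pdgfrb was low outside these classes. Endothelial-like cells held 9, 17 and 1 UMIs on days 3, 7 and 14, or 44.8, 22.7 and 20.9 CPM, and the smooth muscle list in them was 1144, 963.5 and 752 CPM. Monocyte/macrophage-like cells stood at 1.58, 4.61 and 2.01 CPM. The smooth muscle-like class could also hold pericytes, which depend on this receptor. The summed pericyte list in it was 433, 522 and 751 CPM on days 3, 7 and 14, with Higd1b and Vtn at 0. After thinning, a Pdgfrb UMI was held by 21.2% of fibroblast-like cells, 18.2% of smooth muscle-like cells and 5.56% of endothelial-like cells, against 0.302% of neutrophil-like and 0.748% of T cell-like cells. The unthinned shares were 74.6%, 89.2%, 10.8%, 1.13% and 2.39%.

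Since the PDGF receptor dimer can be made of 1 or both chains, cells were also counted by which receptor genes they held. Without thinning, 58.0%, 71.7%, 67.0% and 68.4% of fibroblast-like cells on days 0, 3, 7 and 14 held UMIs of both Pdgfra and Pdgfrb. Pdgfra alone was held by 21.2%, 10.8%, 8.84% and 10.8%, and Pdgfrb alone by 5.63%, 5%, 12.1% and 8.74%. These shares depend on depth, and at 1000 UMIs per cell the share with both was 6.25%, 5.26%, 6.5% and 4.75%, with Pdgfra alone in 21.6%, 22.8%, 16.5% and 18.2% and Pdgfrb alone in 12.02%, 12.3%, 22% and 15.6%. On day 7 more cells held Pdgfrb alone than Pdgfra alone, 26 against 19 unthinned and 44 against 33 thinned, and on the other days fewer. Of all receptor UMIs of fibroblast-like cells, Pdgfrb made up 34.2%, 27.6%, 59.4% and 45.2%. The day 3 value rested on deep cells, as in the remaining cells of that day Pdgfra stood at 372 CPM and Pdgfrb at 236 CPM, against 474 and 247 CPM on day 0. Among smooth muscle-like cells it made up 94.5%, 91.7% and 86.5% on days 3, 7 and 14. There, 66.2%, 57.9% and 59.2% of cells held Pdgfrb alone and 27.9%, 26.3% and 29.6% held both, while after thinning none of 203 cells held both.

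**Figure D3:**
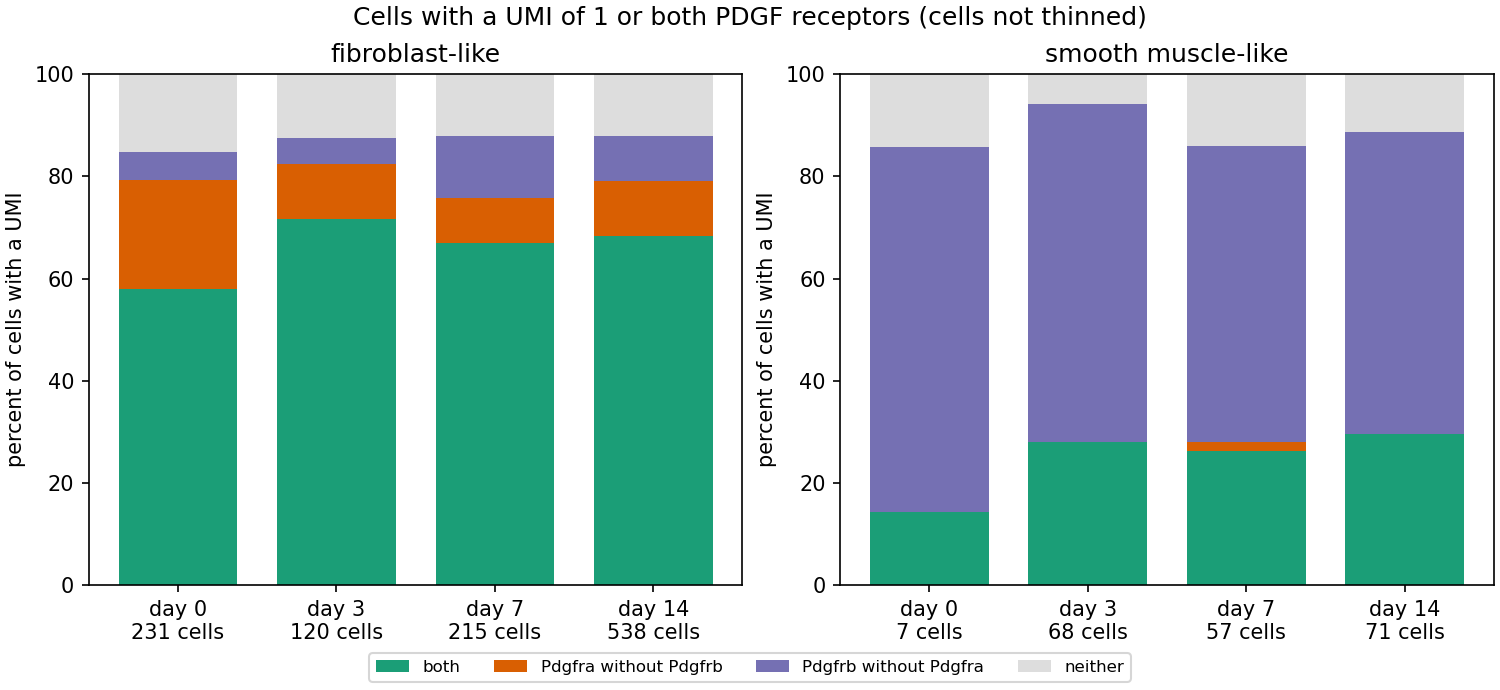
Share of fibroblast-like and smooth muscle-like cells (percent, y axis) with UMIs of both PDGF receptor genes, of Pdgfra alone, of Pdgfrb alone or of neither, by day (x axis), without thinning. Between 58.0% and 71.7% of fibroblast-like cells held both, and most smooth muscle-like cells held Pdgfrb alone.

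The number of cells captured and the level per cell together set which class gave most UMIs of a gene in a library. These shares describe the captured cells, not the vessel, since digestion and dead cell removal can keep classes unequally. Fibroblast-like cells gave 93.5% of Pdgfa UMIs on day 0, and 25.02%, 32.7% and 50.7% on days 3, 7 and 14. Smooth muscle-like cells gave 52.9%, 20.8% and 37.0% on the days after injury while making up 4.84%, 2.12% and 6.90% of the cells. Monocyte/macrophage-like cells gave 12.1%, 21.6% and 11.2%. These shares depended on the deep cells. Without cells of 40000 UMIs or more, monocyte/macrophage-like cells gave 31.1% on day 3 and, as the largest source, 44.4% on day 7, against 10.4% and 23.5% from fibroblast-like cells. On day 7, a further 18.7% of Pdgfa UMIs lay in unnamed cells, or 7.60% without the deep cells.

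For Pdgfb, monocyte/macrophage-like cells gave most UMIs after injury, at 56.7% on day 3 (51.6 to 61.7), 58.7% on day 7 (55.7 to 61.6) and 71.8% on day 14 (65.7 to 77.3). Endothelial-like cells gave 9.97%, 18.2% and 3.63% while making up 2.85%, 2.08% and 1.75% of the cells. Without the deep cells, the endothelial-like shares of days 3 and 7 were 1.56% and 6.22%, and monocyte/macrophage-like cells gave 65.6% and 69.5%. Smooth muscle-like cells gave 53.6% of Pdgfc UMIs on day 3, but without the deep cells 42.3%, beside 41.5% from monocyte/macrophage-like cells. Pdgfc came mostly from fibroblast-like cells on day 14 (63.3%), with 47.0% and 27.0% from fibroblast-like and smooth muscle-like cells on day 7. Pdgfd came from fibroblast-like cells on day 0 (81.2%) and day 14 (72.8%) and from smooth muscle-like cells on day 3 (66.1%). On day 7 it was spread over fibroblast-like (34.4%) and smooth muscle-like cells (30.6%), with 26.7% in endothelial-like cells, or 16.7% without the deep cells. On the receiving side, fibroblast-like cells held 99.9%, 86.4%, 85.9% and 97.3% of Pdgfra UMIs and 97.0%, 50.4%, 70.9% and 88.5% of Pdgfrb UMIs, and smooth muscle-like cells held 34.0%, 16.1% and 10.9% of Pdgfrb UMIs on days 3, 7 and 14. Unnamed cells held 11.6% of Pdgfra and 14.2% of Pdgfrb UMIs on day 3, and 5.83% and 5.54% without the deep cells. Pdgfrb was then split on day 3 into 48.2% in fibroblast-like and 43.6% in smooth muscle-like cells.

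**Figure D4:**
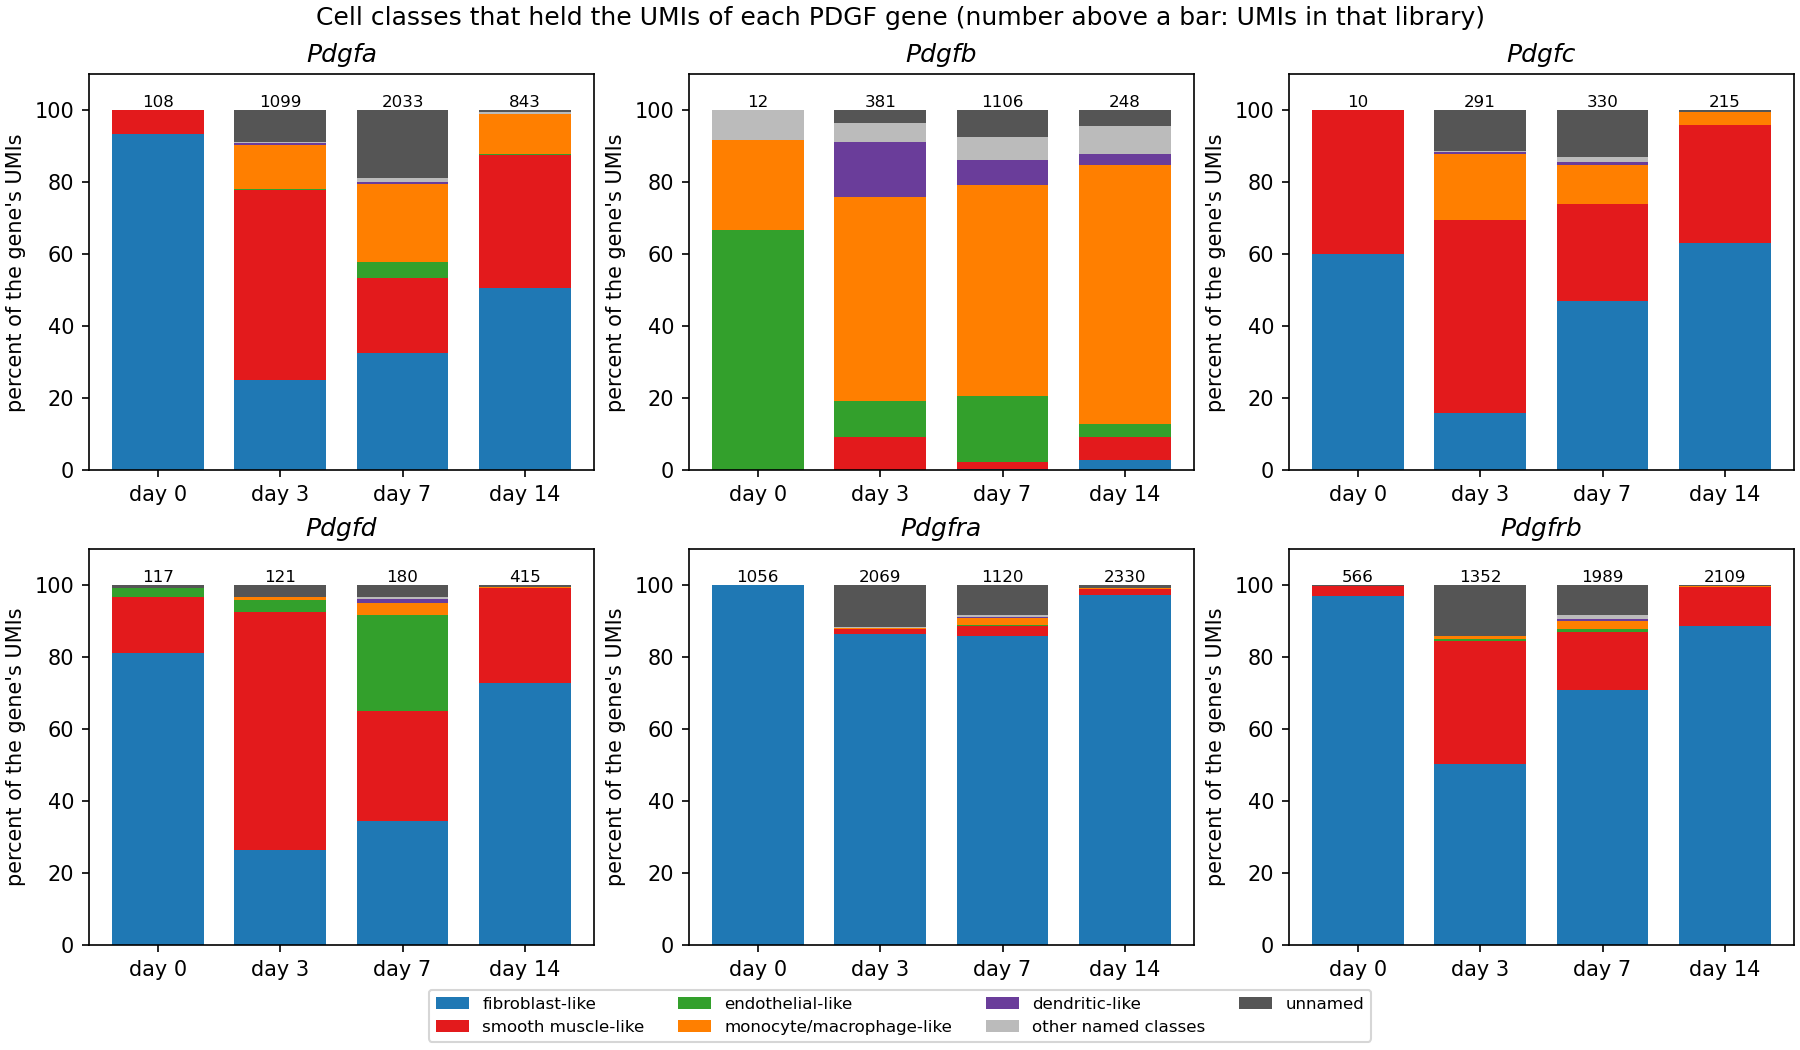
Share of the UMIs of each PDGF gene (percent, y axis) that each cell class held in each library (x axis, day), with the number of UMIs above each bar. Pdgfb after injury came mostly from monocyte/macrophage-like cells, and Pdgfra from fibroblast-like cells in all 4 libraries.

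To set these differences against those of other genes, a gene was counted where its ratio between 2 days was at least 2 or at most 0.5, with at least 20 UMIs over both sums. In fibroblast-like cells on day 3, 1 of the 5 PDGF genes with enough UMIs was higher than on day 0 (Pdgfc) and 1 lower (Pdgfd), where 20.1% of all genes passed in either direction. On day 7, 2 of 5 were higher (Pdgfa and Pdgfc) and 2 lower (Pdgfd and Pdgfra), against 19% of all genes, although Pdgfra did not pass as a mean over cells. On day 14, 1 of 5 was higher (Pdgfc), against 13.7%. Their median log2 ratio was -0.21, 0.18 and -0.24 on the 3 days, beside -0.11, -0.02 and -0.02 over all genes. In smooth muscle-like cells against day 3, 1 of 6 was higher on day 7 (Pdgfra), against 8.52% of all genes, and 2 of 6 on day 14 (Pdgfd and Pdgfra), against 15.3%. None of these 3 calls held under every alternative, as given above for Pdgfd and Pdgfra. Their median was 0.42 and 0.11, beside 0.04 and -0.06 over all genes.

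In monocyte/macrophage-like cells, 2 of 5 were higher on day 7 than on day 3 and 1 lower, against 9.84% of all genes. The higher ones were Pdgfra and Pdgfrb, at 3.27 times (1.11 to 13.1) and 2.91 times (1.40 to 6.78) and the lower one was Pdgfc. Pooled over days, the thinned shares of both receptor genes lay below those of T cell-like cells and above those of neutrophil-like cells, with intervals that overlapped. Expression of the 2 genes in this class was thus not told apart from background, though the count and the median include them. Pooled shares do not bear on a difference between days. As means over cells they were 1.35 and 1.44 times. The fibroblast list in these cells differed between the same days as given above. On day 14, 2 of 3 were higher (Pdgfa and Pdgfb), against 15.3%. The median was 0.98 and 1.43, beside -0.11 and -0.14 over all genes. In endothelial-like cells, 2 of 4 were higher on day 7 than on day 3, at 8.30 times for Pdgfa (2.76 to 41.0) and 3.21 times for Pdgfd (1.18 to 12.3), against 24.6% of all genes, with a median of 1.09 beside 0.10. The Pdgfd ratio rested on 1 cell of day 3 and was 35.7 times as a mean over cells, and Pdgfa was then 19.4 times. With 3 to 6 genes in each count, a share of the genes was set by 1 or 2 of them.

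**Figure D5:**
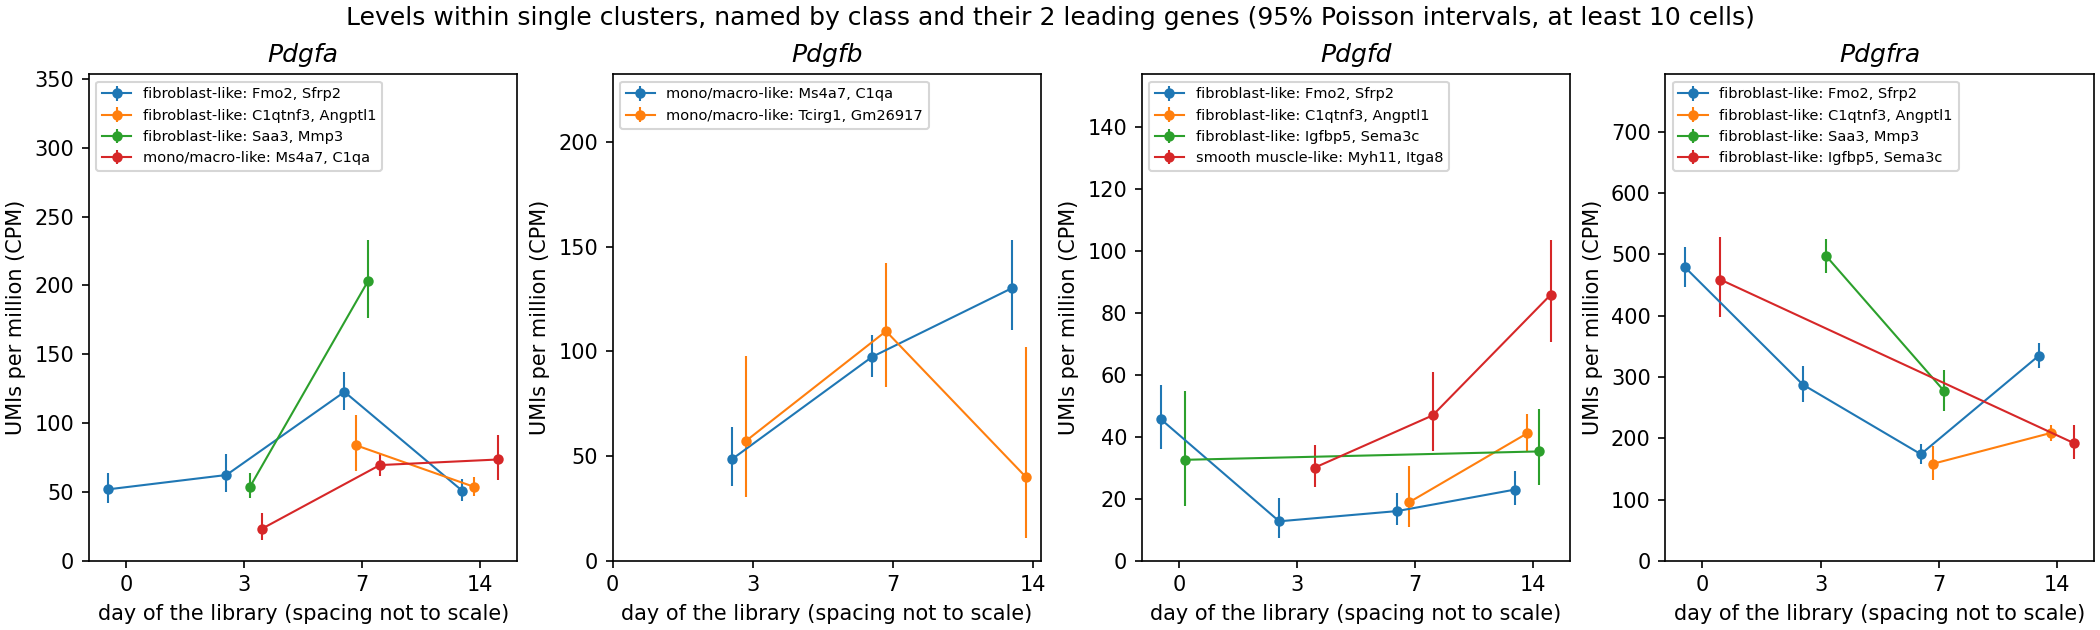
Level (CPM, y axis) of Pdgfa, Pdgfb, Pdgfd and Pdgfra by day (x axis) within single clusters, each named by its 2 leading genes, with exact 95% Poisson intervals. Pdgfa in the fibroblast-like cluster led by Fmo2 and Sfrp2 was highest on day 7, and Pdgfb in the macrophage-like cluster led by Ms4a7 and C1qa was 48.5, 97.4 and 130 CPM on days 3, 7 and 14.

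The receptors act within a wider pathway, for which 40 genes were listed by role. In fibroblast-like cells against day 0, 6 of 38 with enough UMIs were at least 2-fold higher and 3 lower on day 3, 8 and 2 of 38 on day 7, and 5 and 0 of 39 on day 14, with medians of 0.21, 0.34 and 0.09 on the log2 scale. The shares over all genes were 20.1%, 19% and 13.7% in either direction. Among genes of ligand processing and activation, Plaur, the urokinase receptor, was 7.55 times day 0 on day 3 and 2.28 times on day 7. Furin, a proprotein convertase, was 2.40 times on both of those days, and Plau, urokinase itself, was 3.09 times on day 14. Among binding proteins and co-receptors, the collagen crosslinking gene Lox was 3.88, 6.99 and 4.14 times and the proteoglycan gene Cspg4, also a pericyte marker, 2.70, 8.25 and 2.56 times day 0. Sparc, whose protein binds PDGF-B, was 2.48 and 2.85 times on days 7 and 14, whereas Nrp1 was 0.383 times on day 3.

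Of 17 docking and relay genes tested on day 3, the PI3-kinase subunit gene Pik3r1 was 0.340 times and Stat5a 2.74 times day 0, and on day 7 only Nck1 passed, at 0.499 times. Of the 10 genes that restrain receptor signalling, Spry1 was 0.344 times on day 3, and Dusp6 and Spry4, which are induced by ERK signalling, were 3.29 and 2.02 times on day 7. For smooth muscle-like cells against day 3, 0 of 39 were higher and 2 lower on day 7, and 1 higher and 7 lower on day 14, with medians of -0.03 and -0.31, where 8.52% and 15.3% of all genes passed. On day 14, Plaur was 0.224, Plat 0.346 and Plau 0.0944 times day 3, the last from 1 against 22 UMIs, and Pcsk5, a further convertase, was 2.82 times. Crkl, Nck2 and Spry2 were 0.346, 0.456 and 0.487 times. On day 7, Plat, tissue plasminogen activator, was 0.439 times day 3.

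The genes whose pattern was most like that of each PDGF gene were found by Pearson's r of log2(CPM + 10) over 24 sums of a class on a day, among 11587 genes. These sums share libraries and classes, so r is a description. For Pdgfa they were Itga9, Zfhx3 and Nacc2 (r = 0.93, 0.91 and 0.90), and for Pdgfb Tmem171, Frmd4b and Tmem51 (0.84, 0.84 and 0.83), the lowest likeness of the set. For Pdgfc they were Bdnf, Fjx1 and Ccdc68 (0.96 each), and for Pdgfd Tmem47, Col4a2 and Ttc23 (0.97, 0.96 and 0.96). For Pdgfra they were Gm2564, Ccl19 and Prrx2 (0.98, 0.98 and 0.97), and for Pdgfrb Timp3, Stox2 and Gpc6 (0.99, 0.98 and 0.98). Among the PDGF genes, r was 0.83 for Pdgfa with Pdgfc, 0.82 for Pdgfd with Pdgfrb and 0.78 for Pdgfra with Pdgfrb. It was 0.03 for Pdgfa with Pdgfb and -0.60 for Pdgfb with Pdgfra.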

How the data were processed

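The authors deposited 1 matrix of unnormalised UMI counts (genes by cell barcodes) for each of the 4 libraries, and the file headers name Cell Ranger 3.0.2. The mouse build behind the counts is not stated in a usable form in the sources used here, so coordinates are given only for RefSeq promoters on GRCm38.p6. RefSeq windows were examined for 4 of the 6 genes, all but Pdgfb and Pdgfrb. Shallow copies of barcodes shared between libraries were removed where the partner was at least 8 times deeper, then 453 barcodes with under 200 genes or over 20% mitochondrial UMIs. Scrublet's own threshold marked 17 barcodes, 12 of them of day 0, so the highest-scoring ones were instead removed at 0.8% per 1000 barcodes, 106 in all but only 1 of day 0. Scanpy 1.11.5 (scikit-learn 1.9.0, igraph 0.11.9, anndata 0.12.19) scaled cells to 10000, chose 2000 variable genes without the PDGF and pathway genes, and used 30 components, 15 neighbours and Leiden clustering at resolution 1. A cluster was named "X-like" from at least 3 markers with 50 CPM or more, in 10% or more of its cells and at 3 times the lower quartile of the clusters (20 CPM added to each). Clusters shallower than 0.333 of their library needed a clear excess of own markers. A cell of a cluster led by cell cycle genes took the class of at least 60% of its 15 nearest cells from other clusters, or stayed unnamed. The naming rule was settled after the clusters were seen, and the genes, lists and measures were chosen with earlier results of these data known. Levels, intervals and thinning to 1000 UMIs used scipy 1.17.1 and numpy 2.4.6 in Python 3.11.15. The ratio procedure was tested on simulated Poisson counts. These hold no deep cells and no spread between libraries, so the simulation bears on the calculation only.

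All 6 PDGF genes are named. From the pathway list, up to 4 genes per role with the largest change past 2-fold are named, and for each PDGF gene the 3 most alike genes with at least 200 UMIs, over sums of at least 20 cells. Alternatives were a stricter cell filter, another resolution, each library clustered on its own, a mean over cells, no doublet removal, no deep cells, no thinning and a minimum of 100 UMIs. Cells under 2000 UMIs left out and shallow copies kept were added after seeing the data. No column of the files was left unused. Some genes and clusters that these rules would name are not reported here.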

Additional observations from a re-analysis of the deposited data

How the results depend on the processing

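No paired analysis was possible because each day is 1 library. The cause was not tested for the changes below, other than as the setting itself states. Values follow as the alternative, with the reported one in parentheses where it is given. With 500 genes and at most 10% mitochondrial UMIs, median levels in smooth muscle-like cells became 186 CPM for Pdgfa (244), 36.7 for Pdgfc (58.7) and 49.99 for Pdgfd (40.0). Ratios there to day 3 became, for days 7 and 14, 1.88 and 1.55 for Pdgfa, and 4.48 on day 14 for Pdgfd. Directions turned for Pdgfd on day 7, to 0.760 (1.33), for Pdgfc on day 14, to 1.35 (0.932), for Pdgfra, to 0.702 and 0.50 (2.07 and 2.77), and for Pdgfrb on day 7, to 0.939 (1.34). At resolution 0.5, fibroblast-like medians were 292 CPM for Pdgfra (331) and 221 for Pdgfrb (228), with ratios to day 0 of 0.737 and 0.355 for Pdgfra on days 3 and 7 and 1.02 for Pdgfrb on day 7. With each library clustered on its own, medians were 222 CPM for Pdgfa and 74.2 for Pdgfd in smooth muscle-like cells and 309 for Pdgfra in fibroblast-like cells. The day 7 to day 3 ratios were 1.23 for Pdgfa and 2.03 for Pdgfd, and ratios to day 0 were 0.763 and 0.342 for Pdgfra on days 3 and 7 and 0.757 for Pdgfrb on day 14, with Pdgfrb on day 7 reversed, to 0.922. No endothelial-like class was found then, so Pdgfb has no value in it.

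As a mean over cells, medians were 227 CPM for Pdgfa and 66.0 for Pdgfc in smooth muscle-like cells and 101 for Pdgfb in endothelial-like cells (189). Smooth muscle-like ratios to day 3 were 1.13 for Pdgfa on day 7, 1.99 for Pdgfd on day 14 and, reversed, 0.947 for Pdgfrb on day 7. Fibroblast-like ratios to day 0 were 0.581 and 0.634 for Pdgfra on days 7 and 14, and for Pdgfrb 0.878 and 1.57 on days 3 and 7 and, reversed, 1.07 on day 14. Without doublet removal, Pdgfd was 30.1 CPM and its day 7 to day 3 ratio turned to 0.890 (1.33) in smooth muscle-like cells, and Pdgfra was 306 CPM and 0.766 on day 3 in fibroblast-like cells. With shallow copies kept, Pdgfa and Pdgfd were 229 and 62.1 CPM in smooth muscle-like cells. Without cells of 40000 UMIs or more, medians were 62.5 CPM for Pdgfd, 313 for Pdgfra and 242 for Pdgfrb. Smooth muscle-like ratios to day 3 were 1.01 and, turned, 0.868 for Pdgfa on days 7 and 14 (1.40 and 1.12), 1.999 for Pdgfd on day 14 and, reversed, 0.962 for Pdgfrb on day 7. Endothelial-like Pdgfb was 2.66 and 2.29 times day 3 (1.42 and 0.995), the value of day 14 from only 9 against 5 UMIs, fewer than the minimum asked of other ratios. Fibroblast-like ratios were 0.785 and 0.495 for Pdgfra and 0.958 and 1.40 for Pdgfrb on days 3 and 7. Without cells under 2000 UMIs, endothelial-like Pdgfb was 239 CPM.

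A minimum of 100 UMIs left fewer genes to count and lowered the counts past 2-fold in fibroblast-like cells from 2167 to 1045 on day 3, 2110 to 1031 on day 7 and 1601 to 771 on day 14. In smooth muscle-like cells they went from 858 to 201 and 1524 to 443, in monocyte/macrophage-like cells from 1112 to 504 and 1557 to 734, and in endothelial-like cells from 1572 to 337. The shares of cells with a UMI of a gene that are given above over all days were higher without thinning. This need not hold, since thinning also leaves out shallow cells. For Pdgfrb in endothelial-like cells of day 14, the share was 5.56% unthinned and 14.3% thinned. Of 24 shares of a gene's UMIs by class, 14 moved beyond counting error with each library clustered on its own, 8 without deep cells, 6 with the stricter filter, and 5 each at resolution 0.5 and without doublet removal.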

Other observations

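Cells that stayed unnamed entered the shares of UMIs above but no ratio between days. Their Pdgfa level was 45.4 CPM on day 3 and 127 CPM on day 7, and their Pdgfra level was 113 CPM on day 3. Cells of 40000 UMIs or more weighed most, since 12 of the 513 unnamed cells of day 7 held 313 of 381 Pdgfa UMIs, with 32.2 CPM in the rest, and 11 of the 141 of day 3 held 220 of 241 Pdgfra UMIs, with 19.8 CPM in the rest. In these deep cells Pdgfa stood at 356 CPM on day 7 and Pdgfra at 205 CPM on day 3. By number of cells, the largest unnamed cluster held 340 barcodes of day 7 with a median of 748 UMIs and markers of both fibroblasts and monocytes or macrophages. Other unnamed cells came from clusters led by cell cycle genes. The cluster led by Timp1 and Hist1h2ap, divided by neighbours, held 18 and 28 cells on days 3 and 7, with a median of 53116 UMIs. Which clusters held the deep unnamed cells is not given here.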
